A study of Mus musculus with 9 samples.

Results

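The replication-dependent histone genes are the genes of the mouse clusters Hist1 to Hist4 that encode the linker histone H1 and the core histones H2A, H2B, H3 and H4. They were taken as every named row of the count tables whose symbol starts with Hist1h, Hist2h, Hist3h or Hist4h, which gave 69 of 26611 named genes. These are 6 H1, 19 H2A, 19 H2B, 12 H3 and 13 H4 genes. Hist1 on chromosome 13 holds 55 of them, Hist2 on chromosome 3 holds 10, Hist3 on chromosome 11 holds 3 and Hist4 on chromosome 6 holds 1. Hist1h2al and Hist3h2bb-ps are marked as pseudogenes in the RefSeq gene table.

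Chromatin immunoprecipitation with sequencing was done on mouse MLL-ENL leukemia, a leukemia driven by a fusion oncogene, in 3 groups labelled fl, ΔERT2 and ΔERT2 + Hhex-F. These are called floxed, deleted and rescue here, and the rescue carries tagged Hhex, a homeobox transcription factor. All 3 carry MLL-ENL. Neither the floxed gene nor the means of deletion is named in the labels; only the series title and the tag point to Hhex. The sources used here give no strain, age, number of animals or number of clones. Trimethylation of histone H3 at lysine 4 (H3K4me3), which marks active promoters, trimethylation at lysine 27 (H3K27me3), which Polycomb repressive complex PRC2 deposits, and Flag-tagged protein were each profiled in 1 library per group, so no difference has a replicate check, no p-value is given, and intervals cover counting error only.

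Named genes held 645240, 420701 and 395133 H3K4me3 counts in the floxed, deleted and rescue library, and 2444487, 2535576 and 4203349 H3K27me3 counts. Values are given in that order throughout. Of the marker genes of the myeloid lineage, 8 of 11 had enough H3K4me3 counts to be compared. All 11 summed to 1582, 1355 and 1468 CPM (counts scaled to a common library total), while Ptprc, the pan-leukocyte gene, had 0 counts in all 3 windows. Markers of other lineages summed to 6.20, 19.0 and 7.59 CPM for B cells, 10.8, 16.6 and 15.2 for T cells, 34.1, 30.9 and 48.1 for erythroid cells, and 23.3, 30.9 and 22.8 for stromal and endothelial cells. Differences in cell composition between the libraries were not tested as a part of the results below.

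Replication-dependent histone genes supply the histones that package newly copied DNA, and they are transcribed mainly in S phase. Their messages lack introns and end in a stem-loop bound by Slbp in place of a poly(A) tail. NPAT, a cyclin E-Cdk2 substrate, gathers at the clusters in histone locus bodies and drives their transcription. The replication-independent variants, such as H3f3a and H3f3b (H3.3) and H2afz (H2A.Z), lie outside the clusters and are made throughout the cell cycle.

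Each gene's H3K4me3 value comes from a 301 bp window; the sources used here do not say where it lies relative to the gene start. Measured genes are those averaging 20 counts or more across the H3K4me3 libraries. Most members' windows lay below the median measured gene in all 3 libraries. The median member had 41.8, 64.2 and 32.9 CPM, against 126, 124 and 127 CPM for the median of all measured genes. This sets unfiltered members against filtered genes, since 6681 of 26611 named genes and 38 of the 69 members passed the filter. Levels against all named genes were not compared. Of the 69 members, 2, 10 and 2 lay above the median of measured genes. Together they held 0.332%, 0.517% and 0.298% of each library's counts. The measured members numbered 38, made up of 4 H1, 10 H2A, 8 H2B, 8 H3 and 8 H4 genes. The other 31 had at most 29, 26 and 17 counts; Hist1h2aa, a testis-type H2A gene, had 0 in all 3 libraries, and the lowest above 0 were Hist1h2bq and Hist4h4, each with 1, 0 and 0.

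The promoters carry the elements by which histone types are regulated apart from each other, and are shown for members whose values are described below. RefSeq promoter sequences (GRCm38.p6, which is mm10; 250 bases before to 50 after the gene start) were at hand for 62 of the 69 members. The motifs searched, on both strands, are spelled out after the sequences. Hist1h1b (chr13:21780576-21780875 on the minus strand) had the highest H1 level, Hist1h2ag (chr13:22042900-22043199 on the minus strand) stands for an H2A gene that shares its promoter region with an H2B gene, and Hist1h2bm (chr13:21721794-21722093 on the plus strand) and Hist1h4f (chr13:23551619-23551918 on the minus strand) had the lowest ratios of rescue to deleted among measured members. Hist1h3g (chr13:23535168-23535467 on the plus strand) is an H3 gene of Hist1, and Hist2h2ac (chr3:96220831-96221130 on the minus strand) is a Hist2 gene with nearly equal levels in floxed and deleted. Sequences run 5′ to 3′ on the gene's strand, and capitals mark any match to a searched motif on either strand.
Hist1h1b: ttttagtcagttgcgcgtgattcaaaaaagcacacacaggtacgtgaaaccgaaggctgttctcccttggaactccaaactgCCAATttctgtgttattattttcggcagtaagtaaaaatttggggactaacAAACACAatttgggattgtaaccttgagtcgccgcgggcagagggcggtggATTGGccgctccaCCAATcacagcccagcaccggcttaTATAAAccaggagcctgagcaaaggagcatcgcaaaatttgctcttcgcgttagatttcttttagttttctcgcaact
Hist1h2ag: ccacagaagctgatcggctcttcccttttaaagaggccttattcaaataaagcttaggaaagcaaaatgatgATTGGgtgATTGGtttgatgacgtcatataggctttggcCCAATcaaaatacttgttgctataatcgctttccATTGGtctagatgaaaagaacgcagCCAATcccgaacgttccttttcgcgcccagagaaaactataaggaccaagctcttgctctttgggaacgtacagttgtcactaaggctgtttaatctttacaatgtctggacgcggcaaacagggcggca
Hist1h2bm: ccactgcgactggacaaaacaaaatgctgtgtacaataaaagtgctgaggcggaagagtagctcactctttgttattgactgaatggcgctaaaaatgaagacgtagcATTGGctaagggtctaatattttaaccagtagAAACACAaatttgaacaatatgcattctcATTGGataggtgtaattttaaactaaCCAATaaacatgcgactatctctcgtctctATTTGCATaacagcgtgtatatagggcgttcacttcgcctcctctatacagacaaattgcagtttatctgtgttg
Hist1h3g: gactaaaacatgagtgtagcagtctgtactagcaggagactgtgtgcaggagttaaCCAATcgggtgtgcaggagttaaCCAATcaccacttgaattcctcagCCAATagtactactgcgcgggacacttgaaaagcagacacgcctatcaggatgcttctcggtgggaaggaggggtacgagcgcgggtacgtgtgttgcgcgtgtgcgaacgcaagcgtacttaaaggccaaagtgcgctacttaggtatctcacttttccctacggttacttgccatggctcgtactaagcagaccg
Hist1h4f: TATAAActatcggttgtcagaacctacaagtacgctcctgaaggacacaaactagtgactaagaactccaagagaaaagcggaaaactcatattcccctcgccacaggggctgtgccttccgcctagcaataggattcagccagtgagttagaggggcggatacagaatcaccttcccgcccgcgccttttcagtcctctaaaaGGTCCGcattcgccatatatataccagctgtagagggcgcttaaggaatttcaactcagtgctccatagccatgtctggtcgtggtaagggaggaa
Hist2h2ac: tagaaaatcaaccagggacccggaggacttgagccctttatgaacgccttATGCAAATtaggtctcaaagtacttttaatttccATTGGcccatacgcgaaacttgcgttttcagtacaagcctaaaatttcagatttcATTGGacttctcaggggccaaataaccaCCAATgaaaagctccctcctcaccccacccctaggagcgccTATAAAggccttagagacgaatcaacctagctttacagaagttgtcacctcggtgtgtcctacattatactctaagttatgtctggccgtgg

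The NF-Y site CCAAT was present in all 50 H1, H2A, H2B and H3 promoters at hand and in 3 of 12 H4 promoters, which makes 85.5% of the members against 37.9% of all 27025 promoters. The Hinfp site of H4 promoters, GGTCCG, had the opposite distribution, with 11 of 12 H4 promoters and 2 of the other 50, and 8.39% of all promoters. The octamer bound by Pou2f1, ATTTGCAT, was found in 7 of 18 H2A and 6 of 16 H2B promoters and in none of the H1, H3 or H4 promoters, against 1.75% of all promoters. The H1 box AAACACA was found in 5 of 6 H1 promoters and in 14.5% of the members, against 7.14% of all promoters. The TATA box TATAAA was found in 56.5% of the members against 14.2% of all. A match is a run of letters and not a tested site, and 10 pairs of H2A and H2B genes share bases of the same promoter region.

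In the deleted library the histone genes carried more H3K4me3 than in the floxed one. The 69 members summed to 3324 CPM (95% Poisson interval 3185 to 3468) in floxed, 5168 (4953 to 5389) in deleted and 2976 (2809 to 3151) in rescue, from 2145, 2174 and 1176 counts. The intervals of floxed and rescue do not reach that of deleted, and the ratio of deleted to floxed was 1.55 (95% exact conditional interval 1.46 to 1.65). The size rule calls a measured gene higher or lower at a CPM ratio of 1.5-fold or more whose 95% interval excludes 1. By this rule 18 of 38 measured members were higher in deleted than in floxed, against 3.02% of all 6681 measured genes, and 0 were lower, against 4.39%. The count filter averages all libraries, deleted included, so a low-count gene can pass it only through deleted. Hist1h1d, with 24, 34 and 8 counts, and Hist1h2bm, with 26, 30 and 5, are such members. The sum over the 69 members uses no filter. The median log2 ratio of the measured members was 0.62, and that of all measured genes -0.03. Among the 68 members with a count in either library, 58 had the higher CPM in deleted, against 49.8% of the 19868 named genes with a count. Most measured members, 32 of 38, had a mean of 20 to under 50 counts; in that range 16 members were higher, against 5.81% of 2307 genes.

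**Figure D1:**
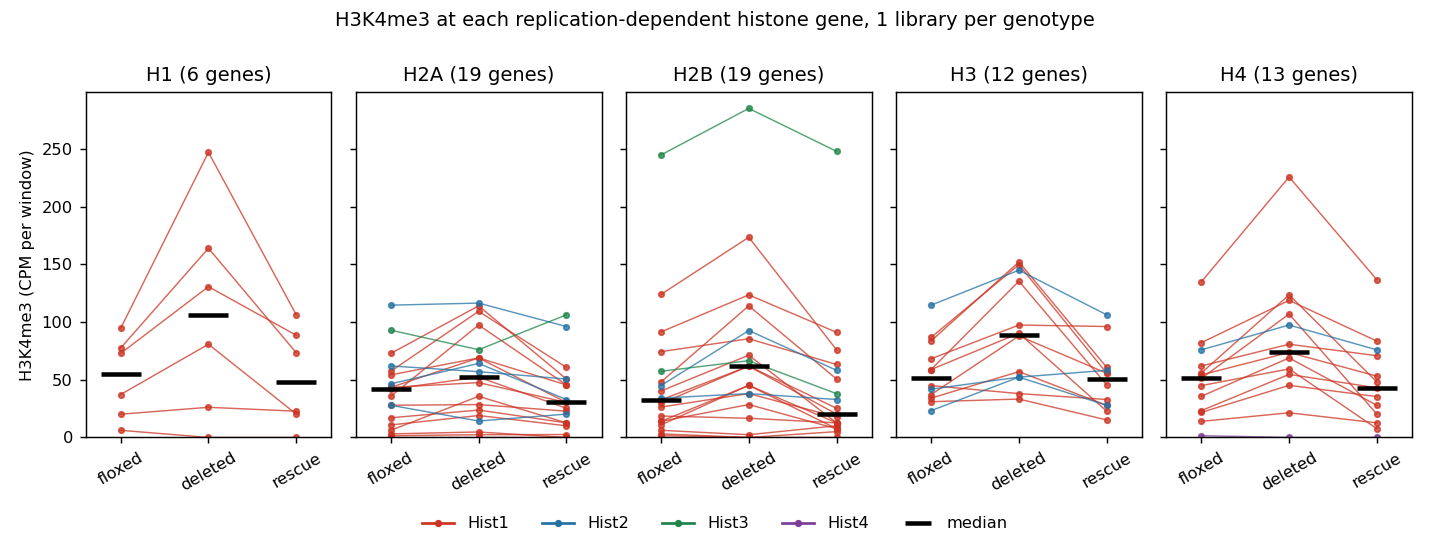
H3K4me3 level of each of the 69 histone genes (vertical axis, CPM in the 301 bp window) in the floxed, deleted and rescue library, 1 library each, in 5 panels by histone type; lines join the values of 1 gene, colours give the cluster and black bars the median. The median of every type was highest in deleted, while the highest gene, the Hist3 pseudogene Hist3h2bb-ps, went from 245 to 285 to 248 CPM.

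The linker histone H1 genes, whose proteins bind the DNA between nucleosomes, had the highest ratio of the 5 types. Their sum was 308 CPM in floxed (267 to 354), 649 in deleted (574 to 731) and 311 in rescue (259 to 371), a ratio of deleted to floxed of 2.10 (1.75 to 2.54). All 4 measured H1 genes were called higher in deleted, though Hist1h1d, with 24, 34 and 8 counts, passed the count filter only through deleted. Hist1h1b, which encodes H1.5, had 94.5, 247 and 106 CPM, a ratio of 2.61 (1.89 to 3.65) from 61, 104 and 42 counts. Hist1h1a, which encodes H1.1, had 77.5, 164 and 73.4 CPM, a ratio of 2.12 (1.45 to 3.11). Both stood high in deleted alone, with floxed and rescue near each other. Hist1h1e, which encodes H1.4, had 72.8, 131 and 88.6 CPM (ratio 1.79, 1.19 to 2.71). Hist1h1d, which encodes H1.3, had 37.2, 80.8 and 20.2 CPM (ratio 2.17, 1.25 to 3.83). The remaining H1 genes were under the count minimum, Hist1h1c with 13, 11 and 9 counts and the testis gene Hist1h1t with 4, 0 and 0.

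H2A genes had the lowest ratio of the 5 types over all clusters. They summed to 759, 1001 and 655 CPM (ratio of deleted to floxed 1.32, 1.15 to 1.504), and 3 of 10 measured genes were higher in deleted. Within Hist1 the core types had nearly equal ratios, 1.62 (1.37 to 1.92) for H2A, 1.62 (1.40 to 1.89) for H2B, 1.67 (1.43 to 1.95) for H3 and 1.69 (1.47 to 1.95) for H4. The H2A genes of Hist2 had a ratio of 1.004 (0.778 to 1.29). Hist1h2ai had 35.6, 97.5 and 45.6 CPM (ratio 2.73, 1.60 to 4.77), the highest ratio of any measured member. Hist1h2ak had 57.3, 109 and 60.7 CPM (ratio 1.91, 1.21 to 3.02) and Hist1h2ag 72.8, 114 and 50.6 CPM (ratio 1.57, 1.03 to 2.39). Hist1h2af, at 43.4, 68.9 and 30.4 CPM, had a ratio of 1.59 whose interval (0.912 to 2.77) included 1. The highest H2A genes lay outside Hist1 and were not called: Hist2h2ac had 115, 116 and 96.2 CPM, and Hist3h2a 93.0, 76.1 and 106 CPM, so that Hist3h2a was lowest in deleted. Hist2h2ab had 62.0, 57.0 and 50.6 CPM and Hist2h2aa2 46.5, 64.2 and 32.9 CPM.

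H2B genes summed to 916, 1350 and 790 CPM (ratio of deleted to floxed 1.47, 1.31 to 1.66), and 3 of 8 measured genes were higher in deleted. Hist1h2bn had 48.0, 114 and 50.6 CPM (ratio 2.37, 1.48 to 3.86). Hist2h2be, a Hist2 gene, had 44.9, 92.7 and 58.2 CPM (ratio 2.06, 1.24 to 3.46). Hist1h2bm had 40.3, 71.3 and 12.7 CPM; its ratio of 1.77 (1.01 to 3.11) barely met the rule. Hist3h2bb-ps had the highest level of all members but a ratio of 1.16 (0.911 to 1.49). Hist1h2bh had 124, 174 and 75.9 CPM (ratio 1.40, 1.005 to 1.95), under the 1.5-fold limit, Hist1h2bl 91.4, 124 and 91.1 CPM, and Hist3h2ba 57.3, 66.6 and 38.0 CPM.

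H3 genes summed to 683 CPM in floxed (621 to 750), 1091 in deleted (993 to 1196) and 605 in rescue (531 to 687), a ratio of deleted to floxed of 1.60 (1.40 to 1.82), with 4 of 8 measured genes higher in deleted. These were Hist1h3b at 37.2, 87.9 and 55.7 CPM (ratio 2.36), Hist1h3c at 58.9, 135 and 45.6 CPM (2.30), Hist1h3e at 83.7, 152 and 60.7 CPM (1.82) and Hist1h3g at 86.8, 150 and 55.7 CPM (1.73). Hist1h3a had 58.9, 90.3 and 22.8 CPM, with a ratio of 1.53 whose interval (0.952 to 2.47) included 1. The Hist2 genes were not called, with 115, 145 and 106 CPM at Hist2h3c2 and 41.8, 52.3 and 58.2 CPM at Hist2h3b.

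H4 genes summed to 657, 1077 and 615 CPM (ratio of deleted to floxed 1.64, 1.43 to 1.88), and 4 of 8 measured genes were higher in deleted. Hist1h4k had the highest H4 level, 135, 226 and 137 CPM from 87, 95 and 54 counts (ratio 1.67, 1.24 to 2.27). Hist1h4j, a neighbour of Hist1h4k in the same cluster, had 55.8, 124 and 48.1 CPM (ratio 2.22, 1.42 to 3.49). Hist1h4f had 51.1, 107 and 20.2 CPM (ratio 2.09, 1.31 to 3.38) and Hist1h4b 35.6, 68.9 and 27.8 CPM (ratio 1.93, 1.08 to 3.50). Hist1h4a, at 82.1, 119 and 83.5 CPM, and Hist2h4, at 75.9, 97.5 and 75.9 CPM, were not called. In each of these 6 genes deleted had the highest CPM.

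In the rescue library the histone genes carried less H3K4me3 than in the deleted one. The ratio of rescue to deleted over the 69 members was 0.576 (0.536 to 0.619). Of the 38 measured members, 18 were lower in rescue than in deleted, against 5.97% of measured genes, and 0 were higher, against 4.49%. Here too the count filter includes deleted, the library where these members were high. The median log2 ratio was -0.74 for measured members and 0.03 for all measured genes. Of 65 members with a count in either library, 59 had the lower CPM in rescue, against 48.4% of the 18680 named genes with a count. At a mean of 20 to under 50 counts, 15 of 32 members were lower, against 8.97% of genes. This comparison and that of deleted with floxed use the same deleted library, so a high value there enters both.

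By type, the ratio of rescue to deleted was 0.480 for H1 (0.385 to 0.596), 0.655 for H2A (0.559 to 0.766), 0.585 for H2B (0.508 to 0.673), 0.554 for H3 (0.472 to 0.650) and 0.571 for H4 (0.487 to 0.669). The genes called lower were 3 of 4 H1, 4 of 10 H2A, 3 of 8 H2B, 4 of 8 H3 and 4 of 8 H4. The lowest ratio was that of Hist1h2bm, 0.177 (0.0538 to 0.462) from 30 and 5 counts. Next came Hist1h4f at 0.189 (0.0771 to 0.406), Hist1h1d at 0.251 (0.100 to 0.551) and Hist1h3a at 0.252 (0.107 to 0.531), each with under 10 counts in rescue. Ratios of better counted genes were closer to the group's, with 0.430 (0.293 to 0.621) at Hist1h1b, 0.438 (0.276 to 0.678) at Hist1h2bh and 0.605 (0.425 to 0.854) at Hist1h4k. The other genes called lower were Hist1h1a, Hist1h2af, Hist1h2ag, Hist1h2ai, Hist1h2ak, Hist1h2bn, Hist1h3c, Hist1h3e, Hist1h3g, Hist1h4b and Hist1h4j, with ratios from 0.336 at Hist1h3c to 0.555 at Hist1h2ak. Hist1h1e (0.678, 0.430 to 1.05), Hist1h3b (0.633, 0.356 to 1.10) and Hist2h2be (0.628, 0.358 to 1.08), which were higher in deleted than in floxed, were not called lower here.

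Set against floxed, the rescue library had a slightly lower sum, with a ratio of 0.895 (0.833 to 0.962). This direction depended on the scaling, since scaling to olfactory receptor genes gave 1.10 (1.03 to 1.18) and placed all 5 types above 1. By the size rule 4 members were lower, against 3.92% of measured genes, and 0 were higher, against 1.92%; scaled to olfactory receptor genes, 0 were lower and 1 was higher. The 4 were Hist1h2bm (ratio 0.314, 0.0942 to 0.831), Hist1h3a (0.387, 0.164 to 0.814), Hist1h4f (0.396, 0.158 to 0.874) and Hist1h2bh (0.612, 0.388 to 0.942). The median log2 ratio was -0.16, and -0.01 for all measured genes. By type the ratio was 1.01 for H1, 0.863 for H2A, 0.862 for H2B, 0.885 for H3 and 0.936 for H4.

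**Figure D2:**
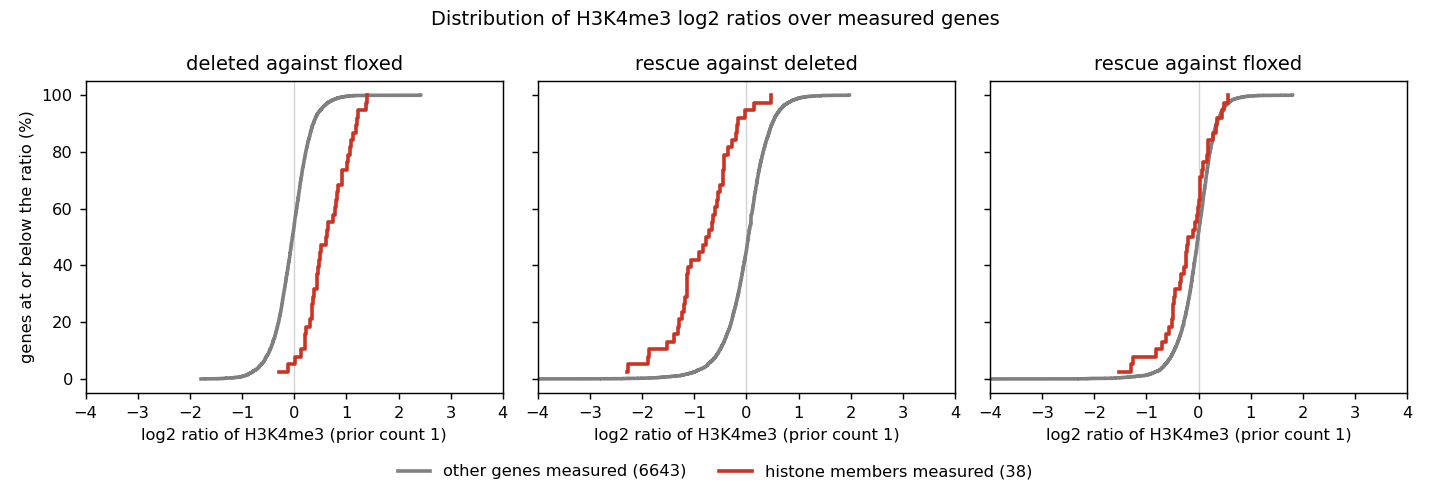
Cumulative share of genes (vertical axis, percent) at or below each log2 ratio of H3K4me3 CPM (horizontal axis, prior count of 1) for the 38 measured histone genes and the 6643 other measured genes, in the 3 comparisons. The medians of the histone genes lie at 0.62, -0.74 and -0.16, and those of all measured genes at -0.03, 0.03 and -0.01.

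Hist1 had ratios further from 1 than Hist2 and Hist3, both for deleted to floxed and for rescue to deleted. Hist2 was not set against Hist3. Hist1 summed to 2342, 4010 and 2025 CPM, with ratios of 1.71 (1.60 to 1.84) for deleted to floxed and 0.505 (0.464 to 0.550) for rescue to deleted. Of its 28 measured members, 17 were higher in deleted than in floxed and 18 lower in rescue than in deleted. Hist2 (chr3:96219885-96270192) summed to 586, 730 and 559 CPM, with ratios of 1.25 (1.07 to 1.45) and 0.766 (0.642 to 0.914), and only Hist2h2be of its 7 measured members was called. Hist3 (chr11:58948911-58955192) summed to 395, 428 and 392 CPM, with ratios of 1.08 (0.890 to 1.32) and 0.917 (0.735 to 1.14). None of its 3 members was called, which is near the shares of all measured genes (3.02% higher in deleted, 5.97% lower in rescue). Most Hist3 counts lay at the pseudogene Hist3h2bb-ps, with 158, 120 and 98 of 255, 180 and 155. From floxed to deleted the other 2 members went opposite ways, Hist3h2ba from 57.3 to 66.6 CPM and Hist3h2a from 93.0 to 76.1. Scaled to olfactory receptor genes, the ratio of rescue to deleted was 0.650 for Hist1, 0.987 for Hist2 and 1.18 (0.947 to 1.47) for Hist3. Hist4h4, the only Hist4 gene, had 1, 0 and 0 counts.

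Exact conditional intervals were taken for the ratio of 2 clusters' ratios. For deleted to floxed, Hist1 exceeded Hist2 by 1.37 times (1.16 to 1.63) and Hist3 by 1.58 times (1.28 to 1.95). For rescue to deleted, the Hist1 ratio was 0.659 times that of Hist2 (0.541 to 0.803) and 0.551 times that of Hist3 (0.435 to 0.699). These 4 intervals exclude 1, though the Hist3 counts lie mostly at the pseudogene Hist3h2bb-ps. For rescue to floxed, Hist1 was 0.906 times Hist2 (0.748 to 1.10) and 0.871 times Hist3 (0.697 to 1.09), intervals that include 1. Among H2A genes alone, Hist1 exceeded Hist2 by 1.61 times (1.19 to 2.20) for deleted to floxed. No such interval was taken for the other types, and H2B did not share the gap. From floxed to deleted, H2B went from 535 to 868 CPM in Hist1 and from 79.0 to 131 in Hist2. H3 went from 504 to 841 CPM in Hist1 and from 180 to 250 in Hist2. H4 went from 580 to 979 CPM in Hist1 and from 75.9 to 97.5 in Hist2. Within Hist1, H1 genes exceeded the core histone genes by 1.27 times (1.04 to 1.56) for deleted to floxed, while for rescue to deleted the factor was 0.941 (0.740 to 1.19).

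**Figure D3:**
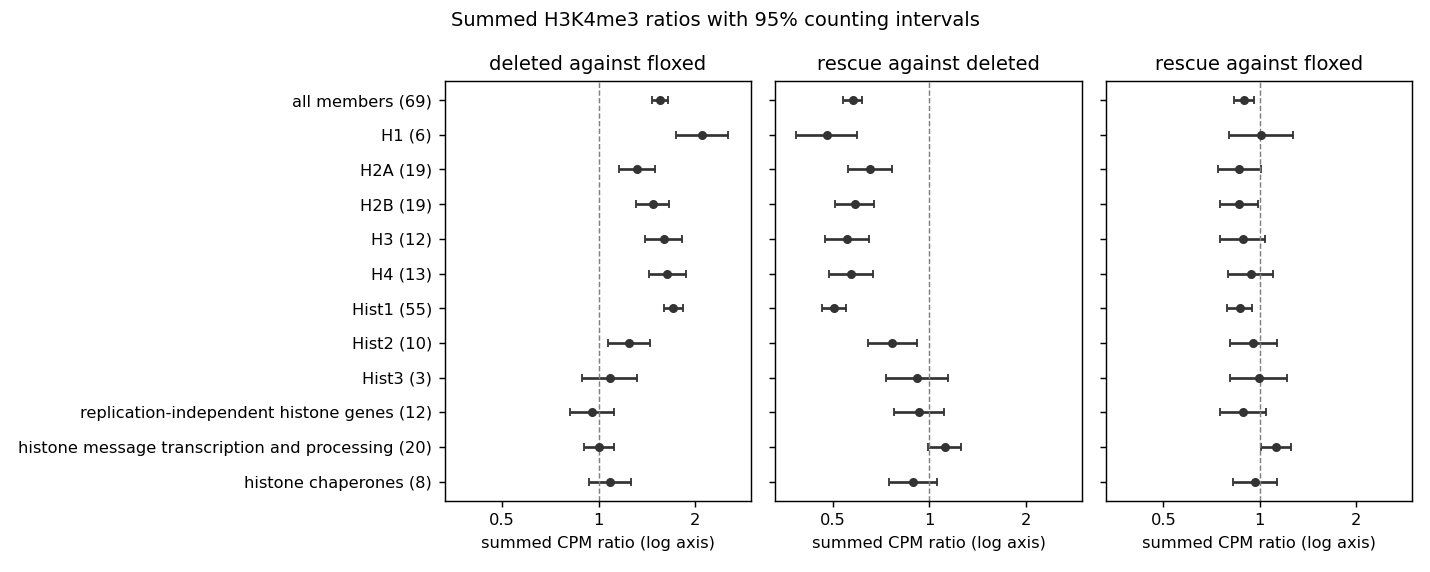
Ratio of summed H3K4me3 CPM (horizontal log axis) for all histone genes, the 5 types, 3 clusters and 3 comparison lists, in 3 comparisons; points are ratios, bars are 95% counting intervals and numbers in brackets count genes. For deleted to floxed, H1 lies highest at 2.10 and Hist1 at 1.71, while Hist3 lies at 1.08 and the replication-independent histone genes at 0.954.

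Hist1 falls into 2 dense stretches and 1 distant pseudogene. The stretch at chr13:21715711-22043658 holds 23 members, of which 8 of 13 measured were higher in deleted than in floxed and 8 lower in rescue than in deleted (ratios 1.82 and 0.535). The stretch at chr13:23531044-23934913 holds 31 members, of which 9 of 15 measured were higher and 10 lower (ratios 1.63 and 0.479). The stretches' ratios of deleted to floxed differed by a factor of 1.11 (0.964 to 1.28) and those of rescue to deleted by 1.12 (0.941 to 1.33), intervals that include 1. For rescue to floxed the ratios were 0.972 and 0.782, which differ by a factor of 1.24 (1.04 to 1.48), an interval that excludes 1. The third is Hist1h2al at chr13:51200084-51203066, with 1 H3K4me3 count in each library.

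Other genes in the same 2 Hist1 stretches had ratios nearer 1 or almost no counts. The 7 other genes within 50 kb of the first stretch had a ratio of deleted to floxed of 1.27 (1.05 to 1.53) and of rescue to deleted of 0.752 (0.605 to 0.934). Its measured genes, the zinc finger gene Zfp184 with 164, 129 and 87 counts and Pom121l2 with 45, 44 and 40, were not called. The 8 other genes around the second stretch had only 18, 10 and 12 counts together. Around Hist2, 5 other genes had a ratio of deleted to floxed of 0.878 (0.707 to 1.09). Around Hist3, 6 other genes had ratios of 1.20 (0.968 to 1.48) for deleted to floxed and 0.761 (0.593 to 0.976) for rescue to deleted. Both were further from 1 than those of the Hist3 members, 1.08 and 0.917.

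**Figure D4:**
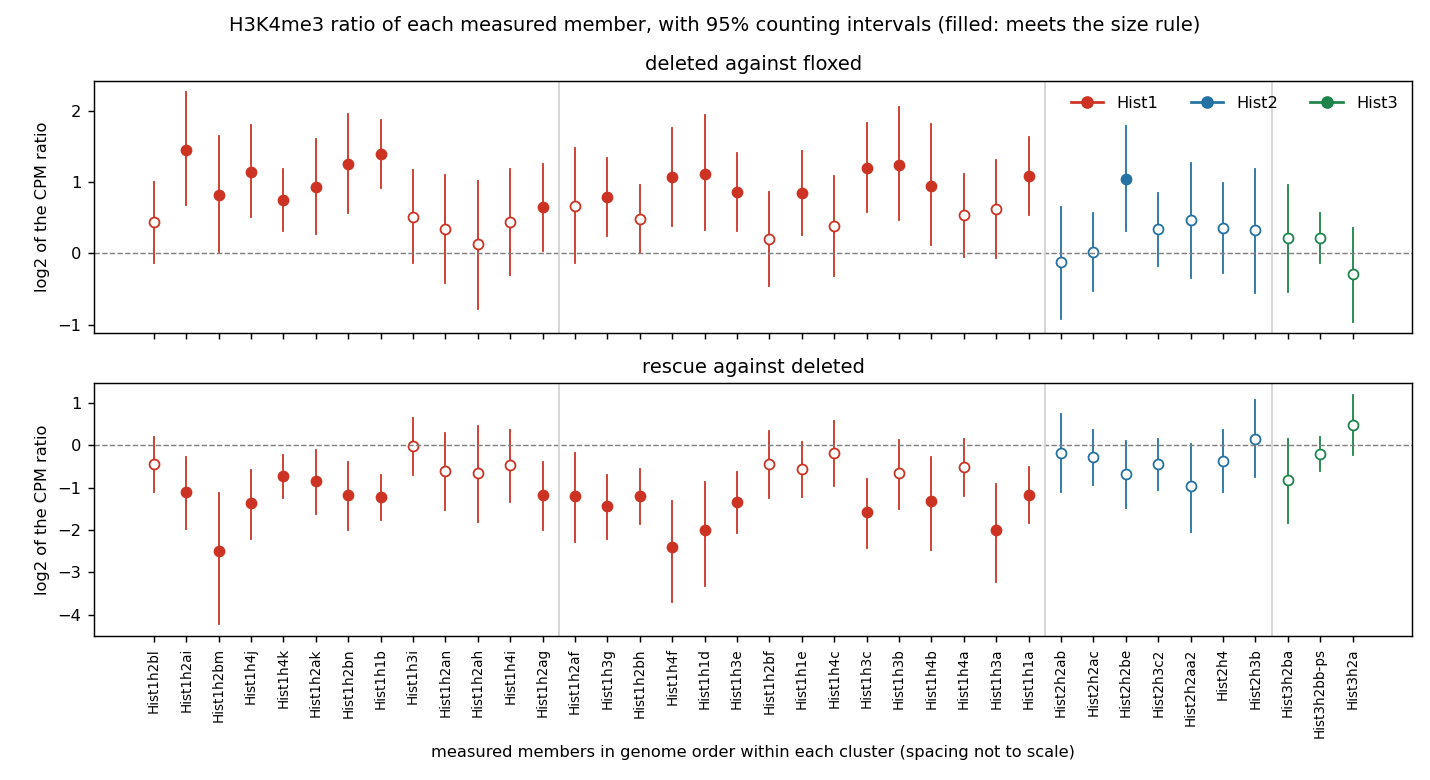
Log2 of the H3K4me3 CPM ratio (vertical axis) of the 38 measured histone genes in genome order within Hist1, Hist2 and Hist3 (spacing not to scale), for deleted against floxed and rescue against deleted; bars are 95% counting intervals and filled points meet the size rule. Filled points lie in both Hist1 stretches, with 17 above 0 in the upper panel and 18 below 0 in the lower, while Hist2 has 1 in the upper panel and Hist3 none.

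Near-identical copies were sought only in promoter sequence, among the 62 members with an entry. Sequence further than 50 bases after the start was not compared, nor were members without an entry, such as Hist1h3a and Hist2h2be. As the place of the counted window is not known, sharing of reads within it was not assessed. By promoter sequence, Hist1h2bq and Hist1h2br are 100% identical, and Hist1h4m and Hist1h4n 99%; none of the 4 was measured. Exact runs of at least 50 bases are shared by 12 members, of which 4 were measured. The longest runs among these 4 were in Hist2. Hist2h3c2 is 89.7% identical to Hist2h3c1 with a shared run of 231 bases. Hist2h2aa2 is 72.7% identical to Hist2h2aa1 with a run of 219 bases. Reads within such runs cannot be told apart, so Hist2 values are exposed to sharing too. Hist1h4j and Hist1h4k, both called, are 87% identical with a shared run of 72 bases, and reads within that run cannot be told apart. Their promoters, chr13:21734784-21735083 on the plus strand and chr13:21750504-21750803 on the minus strand, are shown to compare them.
Hist1h4j: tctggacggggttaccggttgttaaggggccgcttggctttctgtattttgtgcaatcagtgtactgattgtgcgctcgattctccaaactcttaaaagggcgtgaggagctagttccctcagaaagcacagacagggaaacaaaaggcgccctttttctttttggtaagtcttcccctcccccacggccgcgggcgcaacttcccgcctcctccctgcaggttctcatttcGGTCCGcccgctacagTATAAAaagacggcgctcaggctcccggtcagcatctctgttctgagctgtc
Hist1h4k: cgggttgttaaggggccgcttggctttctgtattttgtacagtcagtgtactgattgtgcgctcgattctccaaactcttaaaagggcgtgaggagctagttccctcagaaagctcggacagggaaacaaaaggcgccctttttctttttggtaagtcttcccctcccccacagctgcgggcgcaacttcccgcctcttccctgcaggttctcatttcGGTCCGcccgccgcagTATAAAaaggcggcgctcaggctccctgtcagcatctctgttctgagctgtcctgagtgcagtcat

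Divergent H2A and H2B genes formed 10 pairs with starts 164 to 281 bp apart, closer than the 301 bp window is long, and the sources used here do not say whether a read in 2 windows was counted for both genes. The 20 genes in such pairs had ratios of 1.68 (1.47 to 1.92) for deleted to floxed and 0.532 (0.452 to 0.625) for rescue to deleted. The 42 other members with a promoter entry had ratios of 1.57 (1.46 to 1.69) and 0.568 (0.519 to 0.620). Partners did not always have like levels: Hist1h2ag had 47, 48 and 20 counts and Hist1h2bj, 249 bp away, 9, 19 and 5.

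As a sum, the replication-independent histone genes did not share the higher level in deleted. The 12 genes summed to 656, 625 and 582 CPM, with ratios of 0.954 (0.814 to 1.12) for deleted to floxed and 0.931 (0.777 to 1.12) for rescue to deleted; the latter was 1.20 scaled to olfactory receptor genes. The ratio of the 69 clustered genes exceeded theirs by 1.63 times (1.38 to 1.93) for deleted to floxed, and was 0.619 times theirs (0.509 to 0.752) for rescue to deleted. Of 7 measured genes, H3f3b, which encodes H3.3, was lower in deleted than in floxed, with 55, 10 and 20 counts (ratio 0.279, 0.127 to 0.552). That drop enters the sums above, and ratios without H3f3b were not taken. H1f0, a linker histone of non-dividing cells, was lower in rescue than in deleted with 60, 50 and 27 counts, and H2afx, which is phosphorylated at DNA breaks, lower in rescue than in floxed with 51, 30 and 17 counts. Of all measured genes, 4.39% were lower in deleted than in floxed, 5.97% in rescue than in deleted and 3.92% in rescue than in floxed.

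Genes that act in transcription and processing of histone messages were compared next. Of 22 listed, 20 were found by symbol and 10 were measured. Their summed ratio of deleted to floxed was 1.003 (0.899 to 1.12). None was called in deleted against floxed, where 4.39% of all measured genes were lower and 3.02% higher. Nor was any called in rescue against deleted, where 5.97% were lower and 4.49% higher. At these shares 10 genes would give few or no calls, so the absence is not particular to them. Npat was higher in rescue than in floxed, with 56, 40 and 55 counts (ratio 1.60, 1.09 to 2.37), against 1.92% of all measured genes. Of 8 histone chaperone genes, 5 were measured, and the summed ratio of deleted to floxed was 1.09 (0.931 to 1.27). Hat1, an acetyltransferase of new histone H4, was lower in rescue than in deleted (85, 54 and 30 counts, ratio 0.592), against 5.97% of all measured genes.

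H3K27me3 was counted over gene spans and few counts fell in histone genes. The 69 members held 152, 150 and 267 counts together, with ratios of 0.951 (0.754 to 1.20) for deleted to floxed and 1.07 (0.876 to 1.32) for rescue to deleted. In 39 members no count was seen in any library, and 66 had at most 10 counts in every library. Histone genes are short, which limits the counts a span can collect, and the counted span equals the RefSeq length for only 11 of the 69 members (37 are shorter and 21 longer); densities per kb use the length in the files. The summed H3 genes had 0, 2 and 2 counts and the summed H4 genes 3, 3 and 5.

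Only 2 members averaged 20 H3K27me3 counts or more and so could be called. In deleted against floxed 1 was lower (background 5.39% of 10604 measured genes) and 0 were higher (4.72%); in rescue against deleted 0 were lower (11.3%) and 1 was higher (7.07%); in rescue against floxed 0 were lower (8.05%) and 0 higher (5.72%). Hist1h2al, the distant pseudogene, had 74, 76 and 128 counts over a span of 5871 bp in the files (2983 bp in RefSeq), which is 5.16, 5.11 and 5.19 CPM per kb, nearly equal in the 3 libraries. Hist3h2ba, an H2B gene, had 54, 24 and 73 counts over 620 bp (462 bp in RefSeq), or 35.6, 15.3 and 28.0 CPM per kb. These levels are above the 90th percentile of measured genes, 9.13, 7.51 and 8.35 CPM per kb. Hist3h2ba was lower in deleted than in floxed (ratio 0.428, 0.253 to 0.705) and higher in rescue than in deleted (1.83, 1.14 to 3.04). Its neighbours had few counts, with 3, 3 and 3 at Hist3h2bb-ps and 0, 0 and 4 at Hist3h2a. On the other side of Hist3h2ba, the next gene, Rnf187, had 1, 4 and 6 counts. Beyond it, Btnl10 had 51, 46 and 78, with CPM ratios of 0.870 and 1.02. H3K4me3 at Hist3h2ba was 37, 28 and 15 counts, and was not called in any comparison.

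**Figure D5:**
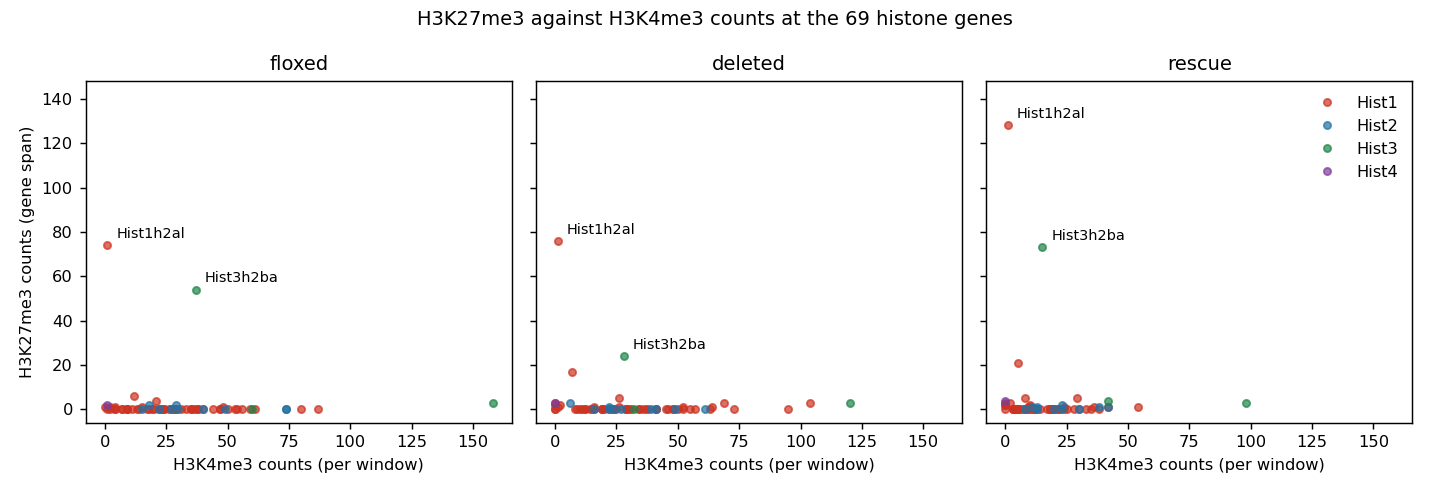
H3K27me3 counts over the gene span (vertical axis) against H3K4me3 counts in the 301 bp window (horizontal axis) for the 69 histone genes in the floxed, deleted and rescue library, coloured by cluster. Hist1h2al (74, 76 and 128 H3K27me3 counts) and Hist3h2ba (54, 24 and 73) stand apart in each panel, and the members with the most H3K4me3 lie near 0 on the vertical axis.

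Flag summits, the positions the authors deposited for the precipitations with the Flag antibody, numbered 475, 220 and 429 in floxed, deleted and rescue. None lay within 10 kb of a histone gene or inside the Hist2, Hist3 or Hist4 clusters in any library. The share of all genes with a summit that near was not computed, so this absence is not read as particular to histone genes. With Hist1 taken from its first to its last gene, 6, 1 and 2 summits fell inside it, all in the gap between the dense stretches and Hist1h2al and at least 2119859 bp from the nearest member. Floxed and deleted cells carry no Flag tag by their labels, so their summits give the background of the antibody.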

How the data were processed

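H3K4me3 and H3K27me3 were measured as whole-number counts per gene, deposited by the authors without normalisation. Per the submitters' processing notes, featureCounts, MACS2 and the build mm10 were used; the sources used here give no versions, aligner or strand use. The deposited Flag files hold summits, each with the authors' −log10 score, used only to filter summits within a list. Rows without a symbol (568 of 27179, 0.608% to 0.739% of counts) were left out. Scaling to CPM used each library's named-gene total. Counting intervals were exact (Poisson, or conditional binomial Clopper-Pearson for ratios) at 95%, and log2 ratios used a prior count of 1. With 1 library per group no test between groups was made; the 1.5-fold rule with a mean of at least 20 counts describes these libraries.

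Named in the text were the 3 members with the highest mean CPM of each type, every member called in H3K4me3, measured members of Hist2 to Hist4, members with a mean of at least 20 H3K27me3 counts, and those with the fewest H3K4me3 counts. Hist1h1c, Hist1h1t, Hist1h2bj, Hist1h2be, Hist1h3i, the near-identical copies, neighbouring genes and Ptprc were named outside this rule, after their values were seen. Comparison lists were named where called. The members and lists were chosen with earlier results of these data known. Gene positions, promoters and pseudogene labels came from RefSeq tables of GRCm38.p6, matched for 69 and 62 members. Alternatives were other scalings (edgeR 4.0.16 TMM, DESeq2 1.42.0 size factors, olfactory receptor genes, ribosomal protein genes), count minimums of 10 and 50, a fold of 2, members with near-identical promoters or no promoter entry left out, and other distances, scores and cluster spans for summits. Python 3.11.15, scipy 1.17.1 and R 4.3.3 were used.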

Additional observations from a re-analysis of the deposited data

How the results depend on the processing

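Of the results recomputed under each alternative, 110 values stayed within their limits, 24 moved and 1 reversed. The cause was not tested unless stated. The 110 include many H3K27me3 call counts, which rest on at most 3 members and so had little room to move. Of the 18 members higher in deleted than in floxed, 16 were also called with edgeR's TMM, 18 with DESeq2's size factors, 16 scaled to olfactory receptor genes and 18 scaled to ribosomal protein genes; of all measured genes, 2.08%, 2.72%, 2.07% and 8.1% were higher under these scalings. With a mean of at least 50 counts, which 6 members reach, 2 were higher in deleted (1.55% of all genes tested), 3 lower in rescue than in deleted (4.39%) and 1 lower in rescue than in floxed (2.65%); at a fold of 2, 10 were higher in deleted (0.629%). Scaled to 76 ribosomal protein genes (3948, 2248 and 2299 H3K4me3 counts), the summed ratios became 1.78 for deleted to floxed and 0.529 for rescue to deleted, and the median log2 ratio of all measured genes was 0.16 for deleted to floxed. Scaled to 1101 olfactory receptor genes (720, 491 and 358 counts), the all-gene median moved to 0.39 for rescue to deleted and 0.28 for rescue to floxed. There the summed ratio of rescue to deleted was 0.742, with 13 members still lower (1.96% of measured genes) and 1 higher (Hist3h2a; 23.9%), and rescue to floxed reversed to 1.10, with 0 lower (1.15%) and 1 higher (Hist1h3i; 12.5%). Hist2 then had a ratio of rescue to deleted of 0.987 and Hist3 of 1.18.

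For H3K27me3, a mean of at least 10 counts gave 1 member higher in deleted (Hist1h2be, whose counted span is 37455 bp). Hist3h2ba was no longer higher in rescue at a fold of 2 (0 members). Scaling to ribosomal protein genes, which rests on 81, 117 and 323 counts, gave summed ratios of 0.683, 0.645 and 0.441 for deleted to floxed, rescue to deleted and rescue to floxed, with 1 member lower and 0 higher in rescue than in deleted and 2 lower in rescue than in floxed; 66% and 90.2% of all measured genes were lower in those comparisons under this scaling. Leaving out members with near-identical promoters or no promoter entry removed, among measured members, only genes without an entry, and so says nothing of near-identical copies. Flag summits with a score of at least 10 inside the long Hist1 span numbered 1, 0 and 1, and with Hist1 split at gaps above 1 Mb, an alternative chosen after seeing the data, 0, 0 and 0; a distance of 50 kb in place of 10 kb added 1 rescue summit, 33809 bp from Hist4h4, and none in floxed or deleted. A check of GC content was void, since 77.0% of measured genes had a promoter sequence and 80% were needed. No paired analysis was possible because each group has 1 library and the labels give no replicate numbers. Low H3K4me3 counts per member limit single genes more than the sums.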
